A study of Mus musculus with 2 samples.

Results

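The genes described here are 9 long noncoding RNAs of mouse bone marrow niche cells: the nuclear RNAs Malat1 and Neat1 and the small nucleolar RNA (snoRNA) host genes Gas5, Snhg1, Snhg3, Snhg5, Snhg6, Snhg8 and Snhg12. They were chosen by symbol, and each matched 1 of the 54532 rows of the deposited gene table. The study set marrow niche cells of mice after bone marrow transplantation (BMT) beside those of mice with acute graft-versus-host disease (aGVHD), an attack on the recipient's tissues by T cells of the graft. There was 1 library of each kind, so no difference below has a replicate check and none was tested between groups.

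In both groups female CB6F1 recipients, a hybrid strain, were irradiated with 2 doses of 4.0 Gy and received 5000000 nucleated marrow cells from B6.SJL mice 4 hours later. The aGVHD_V group additionally received 60000000 spleen cells from female C57BL/6 mice. The V is not explained in the sources used here, and neither age, time after transplantation nor the number of mice per library is given. The cells had been sorted as living cells after removal of those carrying CD45, lineage antigens or CD71, which are proteins of blood cells and their precursors.

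Malat1 and Neat1 stay in the nucleus. Malat1 gathers in nuclear speckles, where splicing factors are stored, and Neat1 is the scaffold around which paraspeckles, another kind of nuclear body, are built. A snoRNA host gene works the other way round from most genes: its introns are trimmed into snoRNAs, which guide chemical modification or processing of ribosomal RNA, while the spliced exons often have no known protein product and many are removed by nonsense-mediated decay. C/D snoRNAs guide methylation of the ribose, and H/ACA snoRNAs guide conversion of uridine into pseudouridine.

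Examples of the snoRNAs encoded in each of the 7 host genes are shown first, because the table lists each of them as a gene of its own. The sequences are the GENCODE M21 transcripts (GRCm38), written 5′ to 3′ in DNA letters. Capitals mark TGATGA (part of the C box) within the first 22 bases of C/D snoRNAs. In the same snoRNAs they mark the last CTGA (the D box) followed by at most 12 bases. In H/ACA snoRNAs they mark ACA before the last 3 bases. Only the transcript strand was searched.
Snord47 in Gas5: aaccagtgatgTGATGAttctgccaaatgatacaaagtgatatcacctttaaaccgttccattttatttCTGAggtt
Snord78 in Gas5: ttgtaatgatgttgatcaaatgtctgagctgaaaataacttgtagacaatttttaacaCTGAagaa
Snord80 in Gas5: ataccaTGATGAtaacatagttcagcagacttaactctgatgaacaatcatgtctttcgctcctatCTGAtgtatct
Snord22 in Snhg1: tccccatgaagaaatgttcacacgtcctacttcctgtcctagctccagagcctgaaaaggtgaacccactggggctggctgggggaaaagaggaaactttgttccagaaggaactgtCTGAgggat
Snora73a in Snhg3: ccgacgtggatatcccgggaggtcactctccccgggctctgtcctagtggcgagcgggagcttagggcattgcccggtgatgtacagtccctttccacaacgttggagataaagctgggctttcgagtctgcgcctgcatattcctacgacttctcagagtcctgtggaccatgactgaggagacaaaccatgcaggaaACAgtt
Snord50a in Snhg5: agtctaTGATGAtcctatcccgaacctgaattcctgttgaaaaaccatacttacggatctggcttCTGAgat
Snord50b in Snhg5: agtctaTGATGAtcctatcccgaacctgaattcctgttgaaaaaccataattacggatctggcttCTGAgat
Snord87 in Snhg6: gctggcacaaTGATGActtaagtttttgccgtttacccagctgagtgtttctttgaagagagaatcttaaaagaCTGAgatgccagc
Snora24 in Snhg8: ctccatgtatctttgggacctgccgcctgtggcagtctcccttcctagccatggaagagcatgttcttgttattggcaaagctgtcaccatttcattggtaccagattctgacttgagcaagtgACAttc
Snord99 in Snhg12: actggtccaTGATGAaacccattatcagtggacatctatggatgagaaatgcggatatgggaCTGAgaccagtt

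The table holds 29 snoRNA rows that lie inside the 7 host genes on the same strand: 10 in Gas5, 8 in Snhg1, 5 in Snhg12, 2 each in Snhg3 and Snhg5, and 1 each in Snhg6 and Snhg8. Of the 22 not named as H/ACA snoRNAs, 22 held the D box letters near the end and 18 also held the C box letters near the start. Of the 7 H/ACA rows 6 ended in ACA and 3 further bases (Snora44 did not). Snord50a and Snord50b are near-identical copies that differ at 1 of 72 bases (C50A, counted from the first base of Snord50a), and Snora73a and Snora73b are 96.6% identical over 205 bases. In every transcript of Gas5, Snhg3, Snhg5, Snhg6 and Snhg8 that spans them and is not a retained-intron form, the snoRNAs fall within introns. In the other 2 hosts some do not: Snora61 is within an intron in 5 of 9 such transcripts of Snhg12, and Snord22 in 3 of 4 of Snhg1.

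**Figure D1:**
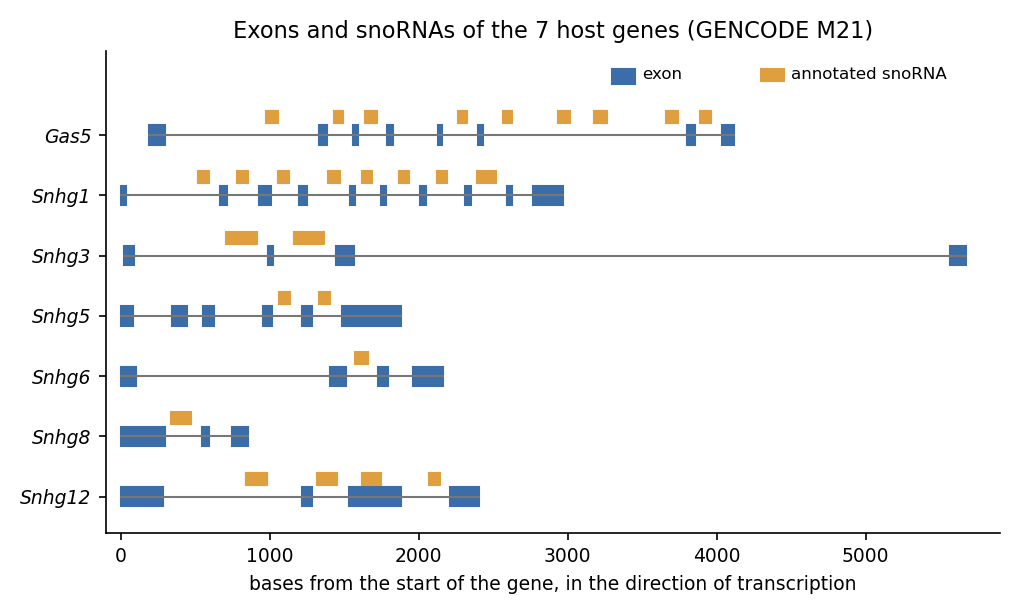
Exons (blue) of the spliced transcript with the longest span and annotated snoRNAs (orange) of the 7 host genes, by distance in bases from the gene's start along the direction of transcription. Gas5 and Snhg1 carry the most snoRNAs, with 10 and 8 rows (2 Snord80 rows overlap), and Snhg6 and Snhg8 carry 1 each.

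None of the 29 snoRNA rows had a read in either library, although 6 of the 7 hosts had from 163 to 2591 reads in each. The same held for most small RNA genes of the table: of 1558 snoRNA and small Cajal body RNA rows, 38 (2.44%) had reads in BMT and 15 (0.963%) in aGVHD_V. Among all 6661 rows of 60 to 205 bases, the lengths of these 29, 122 (1.83%) and 68 (1.02%) had reads. The values below are those of the host rows, and the snoRNAs themselves have no measured level here. Counting all annotated transcripts, most of these snoRNAs lie at least partly in exon bases of their hosts. Snora24 takes 15.2% of the exon bases of Snhg8 and Snora73a 16.1% of those of Snhg3. Retained-intron forms are not the only source, since Snhg3 and Snhg12 have no transcript annotated as such. How reads in these exon bases were counted is unknown. For a row without reads the upper limit is 42 reads (BMT) and 132 reads (aGVHD_V): 3 counts, each taken as the commonest read number among detected genes (14 and 44).

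The libraries hold 10869191 reads over genes (BMT) and 11299834 (aGVHD_V). They differ in their cells as judged by marker genes: 10 of 10 mesenchymal stromal markers were lower in aGVHD_V on the 2-fold scale defined below (summed FPKM 625 against 40.4, Lepr with no reads in the latter), as were 7 of 8 endothelial ones (74.3 against 11.9, with Cldn5 and Cdh5 among 4 at 0). Erythroid markers summed to 44741 and 165645 FPKM, with 6 of 10 higher, and hemoglobin genes took 3.71% and 11.8% of the reads. Neutrophil markers summed to 15175 and 20252, T cell markers to 31.6 and 53.7 (2 of 8 higher), megakaryocyte markers to 87.5 and 277 (4 of 6 measured higher, 1 lower). B and plasma cell markers summed to 76.2 and 15.9 (6 of 7 measured lower, 1 higher) and macrophage markers to 232 and 253 (1 of 8 lower, median difference -0.56, with Cd14 at 71.1 and 114 and C1qa at 58.1 and 75.2 FPKM making up most of the sum). Erythroid and neutrophil markers thus had the highest sums of the 8 marker lists in both libraries, although the label is niche cells and the sort was against blood cells. All 9 RNAs are made in many cell types, and in such mixed samples fewer cells of a type and less RNA per cell cannot be told apart. The part of the cell mixture in the values below was not tested.

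Levels are given as FPKM, fragment counts scaled to gene length and library size. The library sizes that the values imply, 12127105 (BMT) and 10661688 (aGVHD_V), are not plain read totals. Measured genes are those whose FPKM reached 1 in either library. The difference is log2(FPKM + 1) in aGVHD_V minus that in BMT, and 1 or more in either direction is counted as at least 2-fold. All 9 RNAs were measured. 7 of them lay within 2-fold, none was lower by that margin in aGVHD_V, and 2 were at least 2-fold higher, Neat1 and Snhg3. Snhg3 had no reads in BMT and counts as measured through aGVHD_V alone, so on this scale it had to fall outside 2-fold. Both its values are under the floor, and with the floor in place of 0 reads its difference was 0.00 and the count was 1, Neat1. Over all 12942 measured genes 8.65% were at least 2-fold higher and 19.4% lower (28.1% in either direction). With the floor in place of 0 reads these shares were 5.83% higher and 7.63% lower. Of the 789 measured noncoding genes, 30.4% were higher and 42.8% lower (73.3% together). Of the 789, 319 had no reads in aGVHD_V and 161 none in BMT, and like Snhg3 these had to fall outside 2-fold. Most of the noncoding shares was thus fixed by the filter and the pseudocount, and they are no measure of how steady the 9 RNAs are. At an FPKM of 10 to 100 in the higher library, where 7 of the 9 RNAs lie, the shares were 6.47% higher and 8.20% lower over 4854 genes (14.7% together), and 29.2% and 6.15% over the 65 noncoding ones (35.4% together). The median difference of the 9 RNAs was 0.08, that of all measured genes -0.07 and that of the noncoding genes -0.06.

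**Figure D2:**
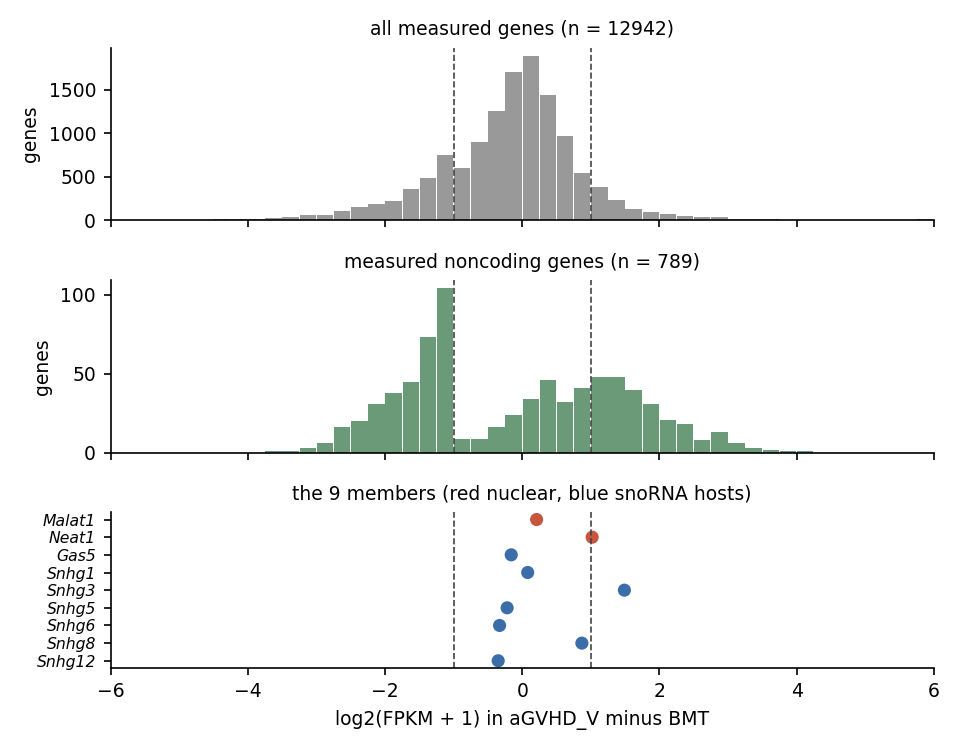
Difference in log2(FPKM + 1), aGVHD_V minus BMT, for all measured genes (grey), the measured noncoding genes (green) and the 9 RNAs (points), with dashed lines at a 2-fold difference; values beyond the axis are placed in the outermost bin. The noncoding genes peak just below -1 and again near 1 (30.4% at least 2-fold higher, 42.8% lower). Of these 789 genes, 319 had no reads in aGVHD_V and 161 none in BMT, and such genes had to fall outside the dashed lines. Of the 9 RNAs, 7 sit between the lines.

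Malat1 (ENSMUSG00000092341) lies on chromosome 19 at 5795690 to 5802672 on the minus strand of GRCm38 as a single exon of 6983 bases. Its level was 53.9 FPKM in BMT and 62.4 FPKM in aGVHD_V, on 4564 and 4642 reads. The libraries carried it at nearly the same level. The ratio was 1.16, with an interval of 1.11 to 1.21 when each read counts as independent. When reads are grouped by the most frequent read number, the 95% interval was 0.920 to 1.45, which includes a ratio of 1. Both kinds of interval are exact binomial (Clopper-Pearson) and cover counting error only, since PCR copies are not independent molecules; the grouped one is used from here on. Malat1 stood above 92.3% of the genes at an FPKM of 1 or more in the BMT library and above 91.2% in the other, and took 0.0420% and 0.0411% of the reads. The sign of its small difference (0.21) turned with the scaling, to -0.37 with equal FPKM sums, to -0.36 with the aGVHD_V library rescaled to the BMT sum and to -0.03 with library sizes of all reads.

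The end of Malat1 is shown because it bears on how the RNA enters a library. Mature Malat1 has no ordinary poly(A) tail; it is cut by RNase P, and a U-rich stretch folds onto an A-rich stretch at the new end and protects it, while the part cut off becomes a small tRNA-like RNA. In the annotated transcript these stretches lie at chr19:5795918-5796082, minus strand, 228 bases before the annotated end. Capitals mark TTTTTCTTTT, which occurs 3 times in the whole transcript, and the run of 12 A.
Malat1: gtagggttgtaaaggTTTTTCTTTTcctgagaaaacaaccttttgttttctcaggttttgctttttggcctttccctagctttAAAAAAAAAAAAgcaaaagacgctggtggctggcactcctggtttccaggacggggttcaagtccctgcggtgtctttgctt
The sources used here do not say how RNA was captured (by poly(A) or otherwise), so a comparison of Malat1 with polyadenylated RNAs is limited by that.

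Neat1 (ENSMUSG00000092274, chromosome 19, 5824708 to 5845478, minus strand, 22035 bases from Malat1) was the RNA of the 9 whose grouped interval excluded a ratio of 1. Its level was 7.39 FPKM on 1861 reads in the BMT library and 16.1 FPKM on 3557 reads in the aGVHD_V library. The aGVHD_V library was 2.17-fold higher, with an interval of 1.63 to 2.89, and the difference was 1.02. The difference stayed above 0 under all 11 alternative settings, from 0.49 to 1.11, but only the rescalings could turn its sign. It reached 1 in 4 settings. These were a pseudocount of 0.1 and the settings for the FPKM minimum and the floor, which leave it at 1.02. In every rescaling and with a pseudocount of 5 it fell short of 1. The place of Neat1 outside 2-fold thus depends on the scaling and the pseudocount. The lowest values were 0.49 with aGVHD_V rescaled to the BMT sum and 0.52 with equal FPKM sums. A ratio within a library is free of that scaling: Malat1 was 7.29 times the FPKM of Neat1 in the BMT library and 3.88 times in the aGVHD_V library.

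Neat1 is made as a short polyadenylated form and a long form that starts at the same place, and the long form is the one needed for paraspeckles. In GENCODE M21 these are transcripts of 3004 and 20771 bases. The deposited length of 20771 bases spreads all reads over the long form, and the level would be 51.1 and 111 FPKM if all reads came from the short one. Which form the reads came from cannot be read from 1 value per gene. The neighbouring gene Frmd8, 4223 bases away, had 9.33 and 15.8 FPKM (ratio 1.69, interval 0.934 to 2.97).

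**Figure D3:**
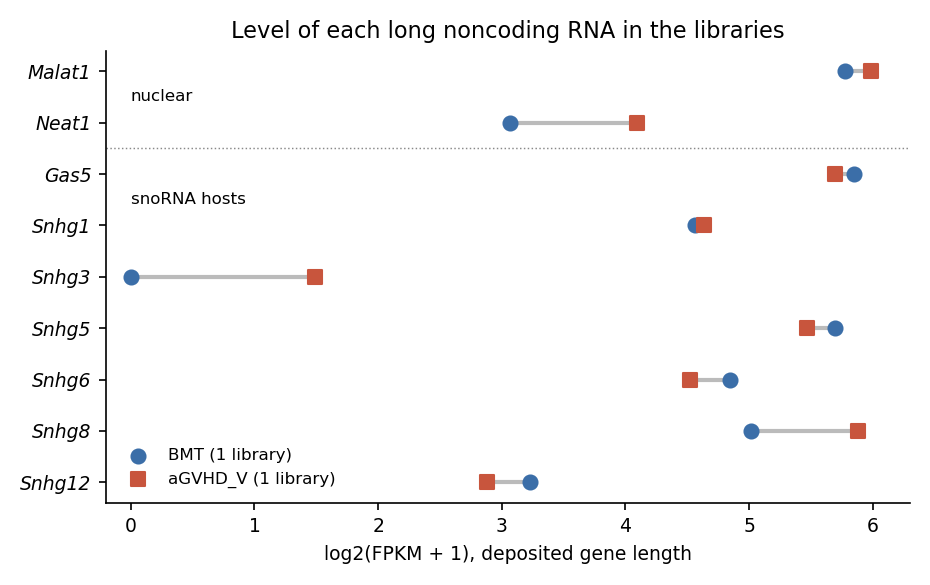
Level of the 9 RNAs as log2(FPKM + 1) in the BMT library (blue circles) and the aGVHD_V library (red squares), 1 library each and no error bars. Neat1 (7.39 against 16.1 FPKM) and Snhg8 (31.4 against 58.1 FPKM) show the widest gaps among genes with reads in both libraries, and Snhg3 has no reads in the BMT library.

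Genes for proteins of these nuclear bodies lay within 2-fold, as did most measured genes (28.1% outside, and 14.7% at an FPKM of 10 to 100 in the higher library). All 14 paraspeckle protein genes were measured and within 2-fold in every setting, with a median difference of 0.01 (range -0.23 to 0.35). Sfpq and Nono, the core proteins that bind Neat1 (named for that role, outside the naming rule), were at 104 and 117 FPKM and at 78.6 and 75.1 FPKM in the BMT and aGVHD_V libraries. Hnrnpa1, an RNA-binding protein and the most abundant of the list, was at 306 and 269 FPKM, Dazap1 at 82.6 and 105 (difference 0.35) and Taf15 at 40.9 and 50.6 (difference 0.30). The 18 genes of nuclear speckles, the home of Malat1, were all within 2-fold too (median 0.05, range -0.52 to 0.26), with 1 lower after rescaling to equal or to the BMT FPKM sum. Among them the splicing factor Srsf7 was at 78.6 and 54.7 FPKM (ratio 0.696, interval 0.455 to 1.03), the speckle protein Srrm1 at 40.8 and 49.1, and the splice site factor U2af1 at 113 and 128.

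Other nuclear noncoding RNAs were sparser. Of 12 on the list 5 were measured, with a median difference of -0.21; 1 was at least 2-fold lower (up to 3 with equal FPKM sums) and none higher. Xist, which coats the inactive X chromosome, was at 36.4 and 31.3 FPKM (ratio 0.861, interval 0.709 to 1.04). Tug1 was at 11.3 and 6.83 (ratio 0.604, interval 0.332 to 1.03), Pvt1 at 1.41 and 2.40, and Dleu2 at 2.19 and 3.17. The lower one, Firre, had 158 reads in BMT and none in aGVHD_V, where the floor of 132 reads makes it at least 1.05-fold lower. Without reads there, it had to fall outside 2-fold on this scale. Over all measured noncoding genes 42.8% were lower and 30.4% higher.

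Among the snoRNA hosts Gas5 was the most abundant in the BMT library. Gas5 (ENSMUSG00000053332, chromosome 1, 161034422 to 161038539, plus strand) is also known as an RNA that accumulates in growth-arrested cells. It was at 56.8 FPKM on 2591 reads in the BMT library and 50.7 FPKM on 2032 reads in the aGVHD_V library. The ratio was 0.892 (interval 0.632 to 1.24, which includes 1). Zbtb37, whose span overlaps its start on the other strand, was at 0.267 and 0.598 FPKM.

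Snhg5 (ENSMUSG00000097195, chromosome 9, 88521050 to 88522929, minus strand), the host of Snord50a and Snord50b, was at 50.8 FPKM on 1065 reads in the BMT library and 43.4 FPKM on 801 reads in the aGVHD_V library. The ratio was 0.855 (interval 0.483 to 1.44). Snhg6 (ENSMUSG00000098234, chromosome 1, 9941959 to 9944118, minus strand), the host of Snord87, was at 27.8 FPKM on 387 reads and 22 FPKM on 269 reads, a ratio of 0.791 (interval 0.270 to 1.94). Both were slightly lower in the aGVHD_V library, and both grouped intervals include 1. When each read counts as independent, the intervals exclude 1 (0.780 to 0.939 for Snhg5 and 0.674 to 0.926 for Snhg6). The same held for Gas5 (0.841 to 0.946) and Snhg12 (0.619 to 0.930). Mcmdc2 overlaps 11.1% of the exon bases of Snhg6 from the other strand and had 21 and 134 reads (whether reads were counted by strand is unknown).

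Snhg1 (ENSMUSG00000108414, chromosome 19, 8723475 to 8726443, plus strand), the host of Snord22 and 7 further rows, was at 22.6 FPKM on 814 reads in the BMT library and 23.9 FPKM on 757 reads in the aGVHD_V library. The ratio was 1.06 (interval 0.579 to 1.84). Slc3a2, a subunit of amino acid transporters that starts 105 bases away in the opposite direction, was at 65.2 and 80.9 FPKM (ratio 1.24, interval 0.930 to 1.64). Snhg12 (ENSMUSG00000086290, chromosome 4, 132308623 to 132311024, plus strand), which hosts Snord99, Snora16a, Snora44 and Snora61, was the least abundant host with reads in both libraries. It was at 8.38 FPKM on 244 reads and 6.36 FPKM on 163 reads, a ratio of 0.760 (interval 0.175 to 2.39).

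Snhg8 was the snoRNA host with the largest difference among those with reads in both libraries. Snhg8 (ENSMUSG00000104960, chromosome 3, 123507552 to 123508404, minus strand), the host of Snora24, was at 31.4 FPKM on 325 reads in the BMT library and 58.1 FPKM on 528 reads in the aGVHD_V library. The ratio was 1.85 (difference 0.87), just inside 2-fold. Its interval was 1.61 to 2.13 when each read counts as independent and 0.839 to 3.86, which includes 1, when reads are grouped. The difference stayed above 0 under all 11 settings (0.30 to 0.88), of which only the rescalings could turn its sign. Relative to Gas5 the order was turned: Gas5 had 1.81 times the FPKM of Snhg8 in the BMT library and 0.873 times in the aGVHD_V library.

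Snhg3 had too few reads for a statement. Snhg3 (ENSMUSG00000085241, chromosome 4, 132348014 to 132353686, minus strand), the host of Snora73a and Snora73b, had 0 reads in BMT and 19 (1.81 FPKM) in aGVHD_V, both under the floor. Its difference of 1.49 comes from the pseudocount and was 0.00 once 0 reads were replaced by the floor. The locus is crowded. Gm17300, an RNA on the opposite strand, overlaps 71.5% of the exon bases of Snhg3 and had 45 reads in BMT and 0 in aGVHD_V. Rcc1, which encodes the chromatin-bound exchange factor for Ran, shares 13.7% of those bases on the same strand and had 1625 and 1749 reads (34.8 and 42.6 FPKM). Reads of these 3 genes may have been divided by the counting rule, so the level of Snhg3 is uncertain.

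**Figure D4:**
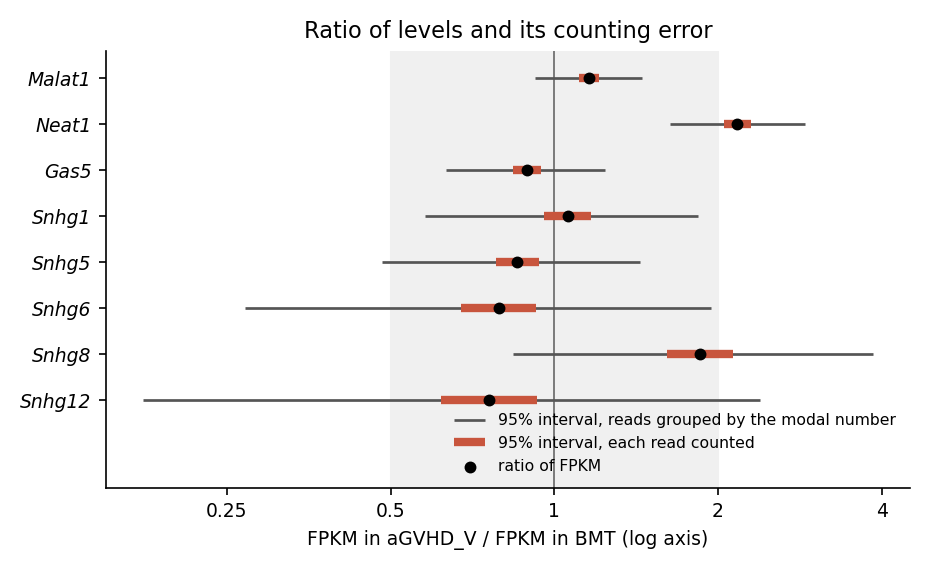
Ratio of FPKM in aGVHD_V to that in BMT (points, log axis) for the 8 RNAs with reads in both libraries, with 95% intervals of counting error from single reads (thick red) and from reads grouped by the most frequent read number (thin grey); the shaded band is within 2-fold. The grouped interval of Neat1, 1.63 to 2.89, excludes 1, and those of the other 7 include it.

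The 7 hosts together summed to 198 FPKM in BMT and 206 FPKM in aGVHD_V. From high to low the order in the BMT library was Gas5, Snhg5, Snhg8, Snhg6, Snhg1, Snhg12 and Snhg3, and in the aGVHD_V library Snhg8, Gas5, Snhg5, Snhg1, Snhg6, Snhg12 and Snhg3. These levels depend on the gene length used. For Gas5 the deposited length is 3760 bases, because 20 of its 25 annotated transcripts are retained-intron forms, whereas its 5 other transcripts measure 346 to 665 bases. Snhg1 has 14 retained-intron forms among 18, a deposited length of 2969 and other transcripts of 408 to 709 bases. Per kilobase of the median transcript that is not a retained intron, an alternative chosen after seeing the data, Gas5 was at 426 and 380 FPKM and Snhg1 at 122 and 129, against 112 and 96.2 for Snhg5 and 54.9 and 101 for Snhg8. Gas5 was then the highest host in both libraries, and Snhg1 moved from the fifth to the second place in the BMT library and from the fourth to the second in the aGVHD_V library. The ratios between libraries are the same with either length.

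The start regions of 6 hosts, those held in the RefSeq start table used here, are shown because some of them have letters in common that the choice of genes did not use. Each line runs from 50 bases before the annotated start to 30 bases after it (GRCm38.p6). Capitals mark TATAAA or TATATA on either strand (TTTATA is TATAAA on the other) between 45 and 15 bases before the start, and a C followed by at least 4 bases that are all C or T, beginning from 10 bases before to 20 bases after the start. Such pyrimidine runs at the very start of an RNA are known from ribosomal protein messages, whose translation depends on growth signals.
Gas5, chr1:161035116-161035195, plus strand: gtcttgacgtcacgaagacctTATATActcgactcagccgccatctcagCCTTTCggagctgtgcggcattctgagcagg
Snhg1, chr19:8723437-8723516, plus strand: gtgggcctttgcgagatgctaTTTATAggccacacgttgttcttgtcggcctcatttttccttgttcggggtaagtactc
Snhg3, chr4:132353657-132353736, minus strand: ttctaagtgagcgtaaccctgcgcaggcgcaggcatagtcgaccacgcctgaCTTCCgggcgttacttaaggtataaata
Snhg5, chr9:88522868-88522947, minus strand: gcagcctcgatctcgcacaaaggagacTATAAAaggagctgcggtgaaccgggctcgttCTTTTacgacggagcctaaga
Snhg8, chr3:123508307-123508386, minus strand: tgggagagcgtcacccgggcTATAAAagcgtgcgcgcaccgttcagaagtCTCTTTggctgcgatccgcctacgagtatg
Snhg12, chr4:132308628-132308707, plus strand: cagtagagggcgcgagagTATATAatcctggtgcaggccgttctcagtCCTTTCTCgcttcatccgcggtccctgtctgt

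Of the 7 host windows in the table (Gas5 has 2, and the other one holds neither feature; a window of Snhg6 was not used here) 5 held the TATA letters, not that of Snhg3, against 3.50% of all 32851 windows. The TATA letters began 29 bases before the start in Gas5 and Snhg1, 30 in Snhg8, 32 in Snhg12 and 23 in Snhg5. The pyrimidine run was in 5 of the 7 windows, not in that of Snhg1, and in 40% of all windows, so it is common. In Gas5, Snhg8 and Snhg12 it began within 2 bases of the start, in Snhg3 at base 3 and in Snhg5 at base 10 after it. The Malat1 window held neither. The motifs and their search windows were chosen after the sequences were seen, and a match describes letters, not a working site.

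Other snoRNA-host RNAs were compared from a separate list. Of 15 on it 13 were found (Snhg7 and Snhg16 were not analysed here) and 8 were measured, with a median difference of -0.69 (range -2.95 to 0.58); 3 were at least 2-fold lower (1 to 6 over the settings) and none higher. Epb41l4aos was the most abundant, at 75.7 and 45.8 FPKM (ratio 0.605, interval 0.177 to 1.61), followed by Zfas1 at 22.3 and 30.5 FPKM (ratio 1.37, interval 0.791 to 2.28). The others within 2-fold were Snhg15 (10 and 15.5 FPKM), Snhg4 (3.69 and 4.18) and Snhg20 (5.61 and 3.19). The lower ones rested on few reads: Snhg17 had 374 and 72 reads (ratio 0.219, interval 0.0179 to 0.976), Snhg10 43 and 0, and Dancr 38 and 0. For Snhg10 and Dancr no fold is given, since the level that the floor allows in aGVHD_V is above their level in BMT. Without reads in aGVHD_V, both had to fall outside 2-fold on this scale. Over all 789 measured noncoding genes 42.8% were lower and 30.4% higher.

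Most genes that work with the snoRNA hosts lay within 2-fold, as did most measured genes. Outside 2-fold were 28.1% of all measured genes and 14.7% of those at an FPKM of 10 to 100 in the higher library. Of 18 snoRNP genes, which encode the proteins that bind and assemble snoRNAs, 17 were within 2-fold and 1 was lower (median 0.05), up to 3 with equal FPKM sums. Nhp2, an H/ACA core protein, was at 151 and 156 FPKM, and the C/D core proteins Fbl, the methyltransferase, and Nop56 (both named for their role) were at 58.8 and 63.8 and at 58.0 and 60.3 FPKM. The lower one, the H/ACA assembly factor Shq1, had 209 and 31 reads (2.46 and 0.415 FPKM, ratio 0.169, interval 0.00106 to 1.40), and Naf1, which acts in the same assembly, was at 11.5 and 5.37 FPKM (ratio 0.468, interval 0.121 to 1.32). Naf1 counts as within 2-fold only through the pseudocount. All 19 protein-coding snoRNA hosts were within 2-fold in every setting (median 0.13, range -0.12 to 0.42), among them the elongation factor Eef2 (1311 and 1341 FPKM) and Eef1b2 (221 and 279, ratio 1.26, interval 1.05 to 1.51).

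The 10 nonsense-mediated decay factors were all within 2-fold (median 0.21, range -0.64 to 0.92), with 2 lower after rescaling to equal or to the BMT FPKM sum. The helicase Upf1 was at 45.8 and 42.8 FPKM, Upf3b at 11.7 and 23.0 (ratio 1.97, interval 1.12 to 3.38) and Smg9 at 9.31 and 16 (ratio 1.72, interval 0.850 to 3.33). Of 21 measured genes of the nuclear exosome and its cofactors, RNase P and RNase Z, 20 were within 2-fold and 1 was lower (median -0.11), up to 6 with equal FPKM sums. The exosome subunit Exosc3 was at 50.2 and 50.4 FPKM, the RNase P subunit Pop1 at 7.63 and 4.20, and the lower one, Rpp40, had 116 reads in BMT and 0 in aGVHD_V, with no fold for the same reason as Dancr. Of 12 reference genes all were within 2-fold (median 0.06), with 1 lower in 6 of the 11 settings. Eef1a1 was at 3085 and 3006 FPKM and Gapdh at 4.29 and 1.72 (a gene with many processed pseudogenes, whose reads may have been split). The plain ratio of Gapdh was 0.402, so it counts as within 2-fold only through the pseudocount.

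**Figure D5:**
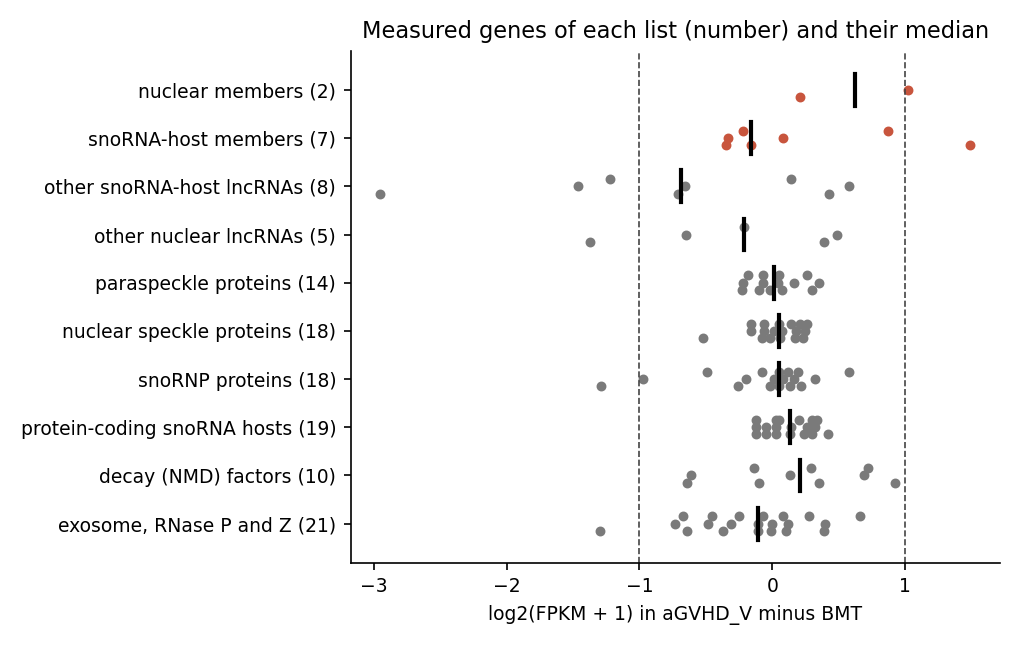
Difference in log2(FPKM + 1), aGVHD_V minus BMT, of each measured gene (points) in the lists of related RNAs and proteins, with the number measured, the median (black bar) and dashed lines at a 2-fold difference. The paraspeckle, nuclear speckle and protein-coding snoRNA host genes all lie within 2-fold, and the other snoRNA-host RNAs extend to -2.95.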

How the data were processed

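RNA sequencing values of 2 libraries, 1 BMT and 1 aGVHD_V, assigned from the sample titles, were used. The deposited table gives values per gene with gene length and position, and the values were taken as FPKM from the table's name. Per the submitters' processing notes, edgeR 3.18.1 and the builds GRCm38 and mm10 were used. Aligner, counter, strand setting and the handling of multiply matching reads: not given in the sources used here. Besides these libraries, 1 more column holds values of a library that fits none of the sample labels; it was left out.

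FPKM times length over 1000 came out as whole multiples of 1 step per library for 100.0% of values above 0 (tolerance 0.05), which gave the reads of each gene. The steps correspond to library sizes of 12127105 (BMT) and 10661688 (aGVHD_V) reads; the second is below the reads over genes of that library, so these are not plain read totals. The commonest read number among detected genes was taken over a moving window of 7 values, leaving out numbers under 4. Of the identifiers, 54495 were found in GENCODE M21, 53585 with identical coordinates. With 1 library per group no test was made. Python 3.11.15, pandas 2.3.3 and scipy 1.17.1 were used, and the code was tested on simulated data. The members and lists were chosen with earlier results of these data known. Named genes are the 9 members, all measured genes of the lists of other host and nuclear RNAs, and from each other list the most abundant gene and the 2 with the largest differences; the values of overlapping and neighbouring genes and of markers are given in part. Some genes that this rule names are not reported here.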

Additional observations from a re-analysis of the deposited data

How the results depend on the processing

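No paired analysis was possible because each group has 1 library, and leaving out a replicate was impossible for the same reason. No member was at least 2-fold lower under any of the 11 alternative settings. The count of members at least 2-fold higher (2) was 0 with a pseudocount of 5. It was 1 with equal FPKM sums, centring on the median gene, upper-quartile scaling and library sizes of all reads. The same held for sums that leave out ribosomal protein, mitochondrial and hemoglobin genes and for the aGVHD_V library rescaled to the BMT sum. In each of these scalings the 1 was Snhg3, whose reads are under the floor, and Neat1 fell short of 1. With an FPKM minimum of 5 or the floor in place of 0 reads the 1 was Neat1. The median difference (0.08) became -0.49 with equal FPKM sums and -0.47 with the aGVHD_V library rescaled to the BMT sum; these shift the median over genes that reach an FPKM of 1 in each library from 0.03 to -0.52 and -0.47. Measured genes were then 6.09% higher and 38.4% lower, and 4.32% higher and 29.1% lower. Gas5, Snhg5, Snhg6 and Snhg12 stayed below 0 and Neat1 and Snhg8 above 0 in all 11 settings. Malat1 was below 0 in 3 and Snhg1 in 4, all of them rescalings. Only a rescaling could turn a sign here. A pseudocount cannot, and the settings for the FPKM minimum and the floor leave genes with reads in both libraries unchanged. Each rescaling lowered the differences of the RNAs with reads in both libraries, so those of Gas5, Snhg5, Snhg6 and Snhg12 could not turn. The difference of Snhg3 instead rose to 2.19 with equal FPKM sums. Depth limits Snhg3 and Snhg12, with under 5 grouped counts (0.432 and 3.70) in the aGVHD_V library.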
